A study of Mus musculus with 8 samples.

Results

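The Myc, Max and Mxd network was followed in mouse embryonic stem cells (ESCs) through 10 genes: Myc, Mycn, Mycl1 (now Mycl), Max, Mxi1, Mxd1, Mxd3, Mxd4, Mnt and Mga. Every non-control probe whose gene name in the scanner files was one of these was taken, which gave 12 of the 39429 probes on the array and 10 of its 30175 gene names. Mxd1 and Mxd4 had 2 probes each, and the others had 1. Myc was chosen by its rise upon Tip60 KD against control KD, so its values against control KD are a description and carry no test. The 9 other genes were listed by function. The 8 arrays came from E14 ESCs grown without feeder cells in medium with LIF and infected with lentiviruses that express short hairpin RNAs, and RNA was taken 72 h after infection. The groups were control KD (a hairpin against EGFP), Tip60 KD, Hdac6 KD and the double KD of both genes, with 2 replicates each, A and B. KD stands for knockdown, Tip60 is the acetyltransferase that Kat5 encodes, and Hdac6 is a deacetylase. All groups, the control included, carried lentivirus and a hairpin, and according to the study's methods each gene was targeted with the most effective of several hairpins. Every array therefore reports 1 hairpin per targeted gene, and effects of a hairpin on other transcripts cannot be told apart from loss of its target. The study's methods call the 2 replicates of a group biological.

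Myc, N-Myc and L-Myc are basic helix-loop-helix leucine zipper proteins that bind the E-box CACGTG as heterodimers with Max and activate genes of growth and proliferation. The Mxd proteins, Mxi1 and Mnt compete for Max and repress through Sin3 and histone deacetylases, and Mga joins Max in a form of Polycomb repressive complex 1 that keeps germ line genes silent in ESCs. In ESCs cultured with LIF, Myc proteins help to sustain self-renewal, and Tip60-p400, the complex that contains Tip60, is one of the coactivators that Myc recruits.

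The sequences that follow show what reported the change in Myc and which promoters belong to the pair of Mxd genes whose change passed the test. The Myc probe lies on chr15:61821417-61821463 of mouse build mm9 (plus strand) with the 47 bases printed here, which end with the last codons of the coding sequence. The stop codon is in capitals. The remaining bases of the 60-base probe lie beyond the stop codon.
Myc probe: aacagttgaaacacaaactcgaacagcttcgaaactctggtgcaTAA
RefSeq promoters on build GRCm38.p6, running from 250 bases before to 50 bases after the annotated start, were matched for 9 of the 10 members, not for Myc. A total of 3 motifs were searched on both strands, CACGTG (the E-box, its own reverse complement), GGCGGGAA (an E2F site) and TTCNNNGAA (a STAT site). The E-box was in the promoters of 3 members, Mxd4 (at position -219 from the start), Mnt (-123) and Max (-3), against 7.15% of all 32851 promoters in the table. The E2F site was in 1, Mxd3 (-137), against 2.19% of all promoters, and the STAT site was in none, against 8.30%. No match overlapped another motif. The 250 bases before the start of Mxd4 (chr5:34187711-34187960, minus strand) and Mxd3 (chr13:55329732-55329981, minus strand) follow, with the E-box and the E2F site in capitals.
Mxd4 promoter: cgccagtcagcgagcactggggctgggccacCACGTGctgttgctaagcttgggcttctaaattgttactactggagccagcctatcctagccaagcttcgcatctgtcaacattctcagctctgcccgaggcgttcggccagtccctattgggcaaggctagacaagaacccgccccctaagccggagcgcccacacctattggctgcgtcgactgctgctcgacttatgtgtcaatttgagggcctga
Mxd3 promoter: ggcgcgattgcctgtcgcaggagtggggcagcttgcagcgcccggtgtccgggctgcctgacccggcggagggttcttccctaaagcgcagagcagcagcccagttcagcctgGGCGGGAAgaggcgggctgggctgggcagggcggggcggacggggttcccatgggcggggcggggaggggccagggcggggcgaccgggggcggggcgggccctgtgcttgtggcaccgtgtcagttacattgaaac
These matches describe the letters of each window and were not tested for binding.

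The arrays were 1-colour Agilent mouse arrays, and a probe's level is its processed signal over that array's 75th percentile, on the log2 scale. Signals were raised to a common floor of -2.71, and between 21896 spots (control KD B) and 40609 spots (Tip60 KD A) of 43020 were well above background. Replicates A of all groups were on 1 slide and replicates B on the other, so each fit was also made with the replicate letter as a block. On each slide the median background subtracted was highest in control KD. It was 61.0 on control KD A against 37.2 to 39.4 on the other A arrays, and 114 on control KD B against 41.4 to 89.0. Double KD B, at 41.4, had 40276 spots well above background, and the other B arrays had 21896 to 27645. The part of these differences in the changes of dim genes such as Mxd4, Mxd3 and Mycl1 was not tested. The targeted genes were low in the groups whose hairpins target them. Kat5 was 1.34 and 1.37 in control KD, 0.00 and 0.01 upon Tip60 KD, 1.52 and 1.53 upon Hdac6 KD and -0.11 and 0.20 in double KD. The level of Hdac6 was 2.21 and 2.18, then 1.74 and 1.77 upon Tip60 KD, -0.28 and -0.32 upon Hdac6 KD and 0.30 and 0.34 in double KD. Upon Tip60 KD the level of Hdac6 was thus also lower, by 0.44 (limma adjusted p = 0.00620), and it was 0.62 higher in double KD than upon Hdac6 KD (adjusted p = 0.0147). All 8 ESC markers checked, Pou5f1 and Nanog among them, were above the floor in every group, with a summed signal of 298 to 331 times the 75th percentile. The fibroblast markers Postn and Dcn, the endoderm markers Gata6 and Foxa2, the mesoderm markers T and Mesp1 and the trophectoderm marker Cdx2 were at the floor on all 8 arrays. Other markers of these cell types were not. Thy1, Gata4, Kdr, Eomes, Krt8 and the neural markers Sox1 and Nes were above the floor on at least 1 array of every group. Col1a1, Col1a2, Col3a1, Sox17 and the neural marker Pax6 were above it in some groups only.

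Myc, the regulator of growth and proliferation, was lowest in control KD and several-fold higher in each knockdown. Its log2 level was 0.34 and 0.26 in control KD (A and B), 2.35 and 2.16 upon Hdac6 KD, 3.52 and 3.23 in double KD and 3.57 and 3.33 upon Tip60 KD. Every knockdown array lay above both control arrays, the Hdac6 KD arrays lay between the control arrays and the others, and the arrays of double KD and Tip60 KD overlapped. As a description, the mean change against control KD was 3.15 upon Tip60 KD (8.89-fold), 1.96 upon Hdac6 KD (3.88-fold) and 3.08 in double KD (8.45-fold). Double KD and Tip60 KD differed by -0.07, with a 95% interval from -0.42 to 0.27. The sum of the 2 single changes exceeded the change in double KD by 2.03 on the log2 scale, so that the changes did not add. All these contrasts share arrays with the one that chose Myc and were not tested.

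Double KD against Hdac6 KD shares no array with that contrast, and here Myc was tested, with the spread estimated over all 8 arrays. It was 1.12 higher in double KD on the log2 scale (2.17-fold, SE 0.14, 95% interval 0.77 to 1.47), with an adjusted p of 0.0177 by limma over all 18109 genes. The call was lost in a fit of the compared arrays alone (1.12, limma adjusted p = 0.138) and with the series matrix (1.11, adjusted p = 0.117). Hdac6 differed by 0.62 in the same contrast, so the groups did not differ in Tip60 alone. In this contrast 10.1% of all genes passed the threshold of an adjusted p under 0.1. The difference was 1.17 within the slide that held the A replicates and 1.07 within the slide that held the B replicates. The call was also lost on leaving out Hdac6 KD replicate A (1.22, limma adjusted p = 0.104) or replicate B (1.02, adjusted p = 0.130), which leaves 1 array in that group, with a spread taken from the other groups. Beside Myc, the summed signal of the trophectoderm markers (Eomes, Krt8 and Cdx2, the last at the floor) was 0.667 to 0.773 in control KD, 0.936 to 1.24 upon Hdac6 KD, 1.28 to 1.48 in double KD and 1.47 to 1.82 upon Tip60 KD. Both markers that could be tested rose upon Tip60 KD. The summed signal of the 6 fibroblast markers was 1.79 to 1.97 in control KD and 1.89 to 2.00 upon Hdac6 KD. It was 2.63 to 2.90 in double KD and 2.50 to 2.98 upon Tip60 KD, with Postn and Dcn at the floor. Of the 3 fibroblast markers that could be tested, 2 rose upon Tip60 KD, 2 in double KD and 0 upon Hdac6 KD. Over all genes 19.7%, 15.9% and 14% rose in these groups. The mesoderm sum, from Kdr with T and Mesp1 at the floor, was 0.414 to 0.754 in control KD, 0.785 to 0.888 upon Tip60 KD, 0.764 to 0.955 upon Hdac6 KD and 0.759 to 0.878 in double KD. The sum of the 3 neural markers was 1.36 to 1.70 in control KD, 1.70 to 1.91 upon Tip60 KD, 1.44 to 1.94 upon Hdac6 KD and 1.62 to 1.95 in double KD, and Pax6 was above the floor on at least 1 Tip60 KD array and on no other. The endoderm marker Sox17 was at the floor in control KD and above it on at least 1 array of each knockdown. The endoderm sum was 0.497 to 0.676 in control KD and 0.429 to 0.796 upon Tip60 KD. It was 0.353 to 0.742 upon Hdac6 KD and 0.403 to 0.778 in double KD, so every knockdown overlapped control KD. Of the 8 ESC markers, 2 rose upon Tip60 KD, 2 upon Hdac6 KD and 3 in double KD, where 1 fell. The part of other cell types in the level of Myc was not tested, and in bulk RNA fewer cells of a type and less RNA per cell cannot be told apart.

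**Figure D1:**
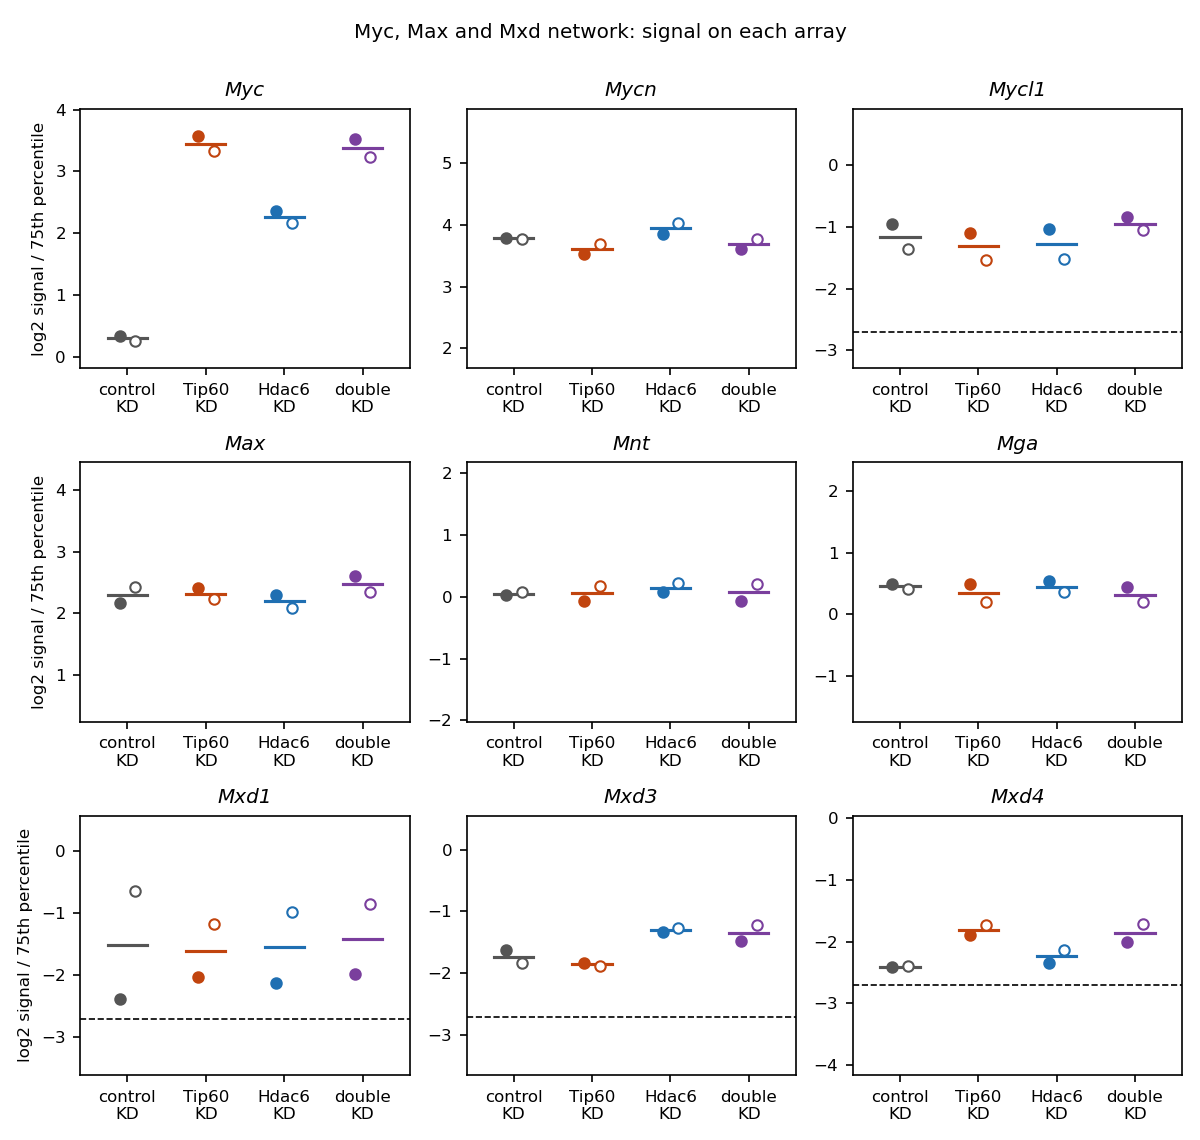
Log2 signal over the array's 75th percentile (y axis) of Myc and 8 partners in the 4 groups (x axis), with filled points for replicate A, open points for replicate B, bars at the group means and a dashed line at the floor of -2.71. Each panel spans the same range of log2 units, and Myc is the gene whose groups stand apart, while the A and B arrays of Mxd1 differ in every group.

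Without the block, neither of the other Myc family genes passed the test in any contrast. Mycn, which encodes the N-Myc of early embryonic cells, was 3.79 and 3.77 in control KD, 3.52 and 3.69 upon Tip60 KD, 3.85 and 4.03 upon Hdac6 KD and 3.61 and 3.77 in double KD on the log2 scale. Its 8 arrays spanned little, with the lowest value upon Tip60 KD and the highest upon Hdac6 KD. The change upon Tip60 KD was -0.17 (95% interval -0.44 to 0.09, limma adjusted p = 0.296), and with the replicate letter as a block it passed the test as lower (adjusted p = 0.0839). Mycl1, which encodes L-Myc, was -0.95 and -1.36 in control KD, -1.09 and -1.54 upon Tip60 KD, -1.04 and -1.51 upon Hdac6 KD and -0.84 and -1.06 in double KD. Every knockdown overlapped control KD, double KD lay just above Tip60 KD, and replicate A lay above replicate B in each of them. In the paired fit, which removes that gap, Mycl1 passed the test as higher in double KD by 0.21 against control KD (limma adjusted p = 0.0764), by 0.37 against Tip60 KD (0.0345) and by 0.33 against Hdac6 KD (0.0370). Without the block these 3 differences had adjusted p-values of 0.610, 0.552 and 0.587.

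Max, the common dimerisation partner, did not pass the test in any contrast. Its log2 level was 2.16 and 2.43 in control KD, 2.41 and 2.23 upon Tip60 KD, 2.29 and 2.09 upon Hdac6 KD and 2.60 and 2.34 in double KD. Every knockdown overlapped control KD, while double KD lay just above Hdac6 KD, and the 95% interval of its change was -0.34 to 0.40 upon Tip60 KD, -0.47 to 0.27 upon Hdac6 KD and -0.19 to 0.55 in double KD. Mnt, the Max-binding repressor found in most cells, lay between -0.07 and 0.22 on all 8 arrays, with changes against control KD of 0.01 to 0.09. Mga, the large partner of Max in Polycomb complexes, lay between 0.20 and 0.53, with changes of -0.13 to -0.01. The 95% interval against control KD that reached furthest from 0 was that of Mga in double KD, from -0.48 to 0.22, and neither gene passed the test in any of the 6 contrasts, with or without the block.

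Mxd4 and Mxd3, repressors of the Mad group that pair with Max and recruit Sin3, were the partners that rose. Mxd4 was -2.41 and -2.40 in control KD, -1.89 and -1.72 upon Tip60 KD, -2.34 and -2.13 upon Hdac6 KD and -2.01 and -1.71 in double KD on the log2 scale. Both arrays of Tip60 KD and of double KD lay above all control KD and Hdac6 KD arrays. The control arrays lay close to the floor and had the highest background subtracted on their slides. Mxd4 rose by 0.60 upon Tip60 KD (1.52-fold, SE 0.13, limma adjusted p = 0.0196) and by 0.55 in double KD (1.46-fold, SE 0.13, adjusted p = 0.0337), with 0.17 upon Hdac6 KD (95% interval -0.16 to 0.50, adjusted p = 0.460). Within the slides, the change was 0.52 and 0.68 upon Tip60 KD and 0.40 and 0.69 in double KD. The second Mxd4 probe, which overlaps the first, was at the floor on all 8 arrays and gave no change to set beside it. The call upon Tip60 KD was lost under 2 of 21 alternatives, another background correction (normexp; 0.36, adjusted p = 0.250) and the series matrix (0.30, adjusted p = 0.188). The call in double KD was lost under 5 of 21, with normexp (0.29, adjusted p = 0.387), with the series matrix (0.30, 0.250), and without control KD replicate A (0.54, 0.130), control KD replicate B (0.55, 0.121) or double KD replicate B (0.40, 0.131).

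Mxd3, the member of the group that is expressed in cycling cells, was -1.63 and -1.84 in control KD, -1.83 and -1.88 upon Tip60 KD, -1.33 and -1.26 upon Hdac6 KD and -1.48 and -1.21 in double KD. The arrays of Hdac6 KD and of double KD lay above those of control KD and Tip60 KD, a different order from that of Mxd4. Mxd3 rose by 0.44 upon Hdac6 KD (1.35-fold, SE 0.12, limma adjusted p = 0.0554) and by 0.38 in double KD (1.31-fold, SE 0.12, adjusted p = 0.0725), with -0.12 upon Tip60 KD (95% interval -0.43 to 0.18, adjusted p = 0.522). Within the slides, the change was 0.30 and 0.58 upon Hdac6 KD and 0.14 and 0.62 in double KD. The rise upon Hdac6 KD lost its call under 7 of 21 alternatives and the rise in double KD under 12 of 21, and without control KD replicate B they were 0.33 (adjusted p = 0.212) and 0.28 (adjusted p = 0.260). Between double KD and Tip60 KD, Mxd3 differed by 0.51 (adjusted p = 0.124, and 0.0424 with the block).

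Mxd1 passed no test, and Mxi1 was at the floor. The Mxd1 probe of higher signal was -2.40 on array A and -0.65 on array B of control KD, -2.04 and -1.18 upon Tip60 KD, -2.13 and -0.98 upon Hdac6 KD and -1.98 and -0.86 in double KD. Replicate B lay above replicate A in every group, and the largest gap, 1.74, exceeded that of 98.4% of all genes tested. The 95% interval of its change upon Tip60 KD ran from -1.91 to 1.74. With the replicate letter as a block, which removes the gap between slides, it ran from -0.60 to 0.42 (SE 0.20), and Mxd1 did not pass there either. The other Mxd1 probe was at the floor on 4 of 8 arrays and between -2.71 and -2.41 on the log2 scale, and it gave changes against control KD of -0.11 to 0.09 with adjusted p-values of 0.580 to 0.801. The probe of Mxi1 was at the floor on all 8 arrays and well above background on 4 of them, with processed signals of 14.6 to 59.1 intensity units, and was not tested.

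Counted together, 8 of the 9 partners could be tested. Upon Tip60 KD 1 of 8 passed (Mxd4, higher), against 39.8% of all genes tested. Upon Hdac6 KD 1 of 8 passed (Mxd3, higher), against 29% of all genes. In double KD 2 of 8 passed (both higher), against 32.8% of all genes. No partner passed by limma between double KD and Tip60 KD (3.71% of all genes did), between double KD and Hdac6 KD (10.1%) or in the interaction of the 2 knockdowns, which is double KD minus both single knockdowns plus control KD (22.1%). At an unadjusted p under 0.05 the counts in these 3 contrasts were 1, 1 and 0. The median size of the partners' change, regardless of sign, was 0.12 upon Tip60 KD, 0.11 upon Hdac6 KD and 0.16 in double KD, against 0.29, 0.24 and 0.25 over all genes.

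With the replicate letter as a block more partners passed. The counts became 2 of 8 upon Tip60 KD (Mxd4 higher, Mycn lower), 1 upon Hdac6 KD (Mxd3) and 3 in double KD (Mxd3, Mxd4 and Mycl1, all higher), against 60.9%, 53% and 55.5% of all genes. Between double KD and Tip60 KD 2 passed (Mxd3 and Mycl1, higher), against 26.3%. Between double KD and Hdac6 KD 3 passed (Mxd4 and Mycl1 higher, Mycn lower), against 29.4%, and in the interaction 1 did (Mycl1, 0.49), against 47.1%. Each group had the same position on both slides, so position and group cannot be told apart.

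**Figure D2:**
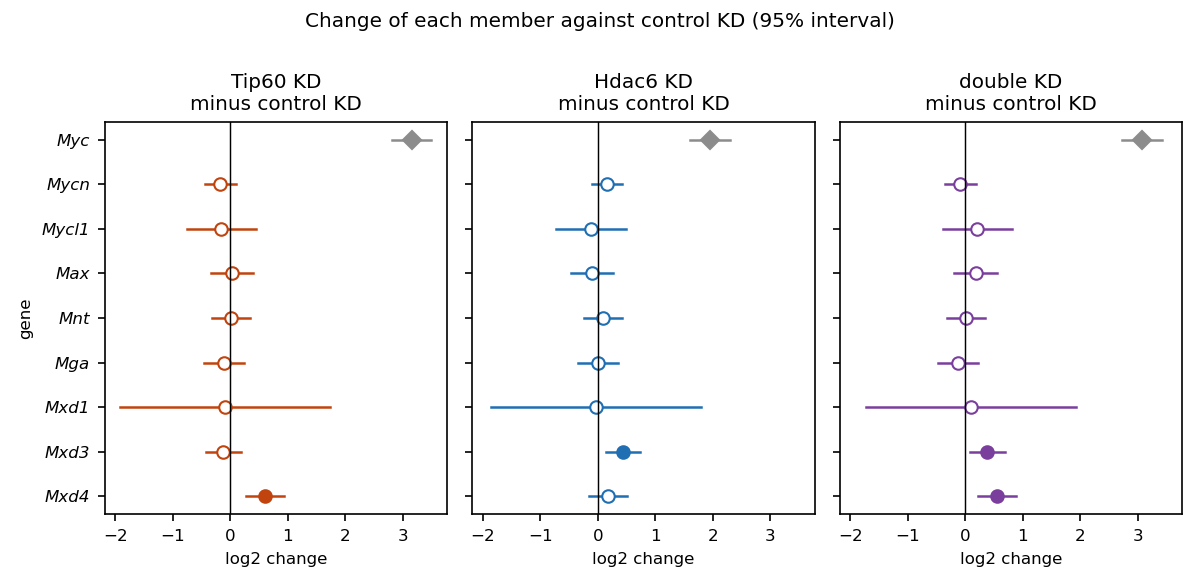
Log2 change against control KD (x axis) of Myc and 8 partners (y axis) upon Tip60 KD, Hdac6 KD and in double KD, with 95% intervals. Filled circles passed an adjusted p under 0.1 and open circles did not, and Myc is a grey diamond because it was chosen for its rise and not tested, at 3.15, 1.96 and 3.08.

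Genes that surround the network were read from lists by role, chosen with earlier results of these data known. Over all genes, 19.7% rose and 20.1% fell upon Tip60 KD, 14% and 14.9% upon Hdac6 KD, and 15.9% and 16.9% in double KD. With the block 60.9%, 53% and 55.5% of all genes passed in these groups, rises and falls together. The Mlx arm is a parallel network, in which Mlx pairs with the glucose-sensing factors Mlxip (MondoA) and Mlxipl (ChREBP) and activates Txnip and Arrdc4, arrestin-like proteins that hold back glucose uptake. Of its 5 genes, 1 rose and 3 fell upon Tip60 KD, 1 rose and 2 fell upon Hdac6 KD, and 2 fell in double KD, with median changes of -0.67, -0.14 and -0.27 against 0.06, 0.03 and 0.05 over all genes. The log2 level of Txnip was 4.57 and 4.43 in control KD, 1.78 and 1.49 upon Tip60 KD, 2.12 and 1.88 upon Hdac6 KD and 2.47 and 2.19 in double KD. Every knockdown array lay below both control arrays, and Txnip fell by 2.87, 2.50 and 2.17 (SE 0.16, limma adjusted p = 0.000616, 0.00156 and 0.00151). Arrdc4 fell with it, by 1.46, 1.18 and 1.49. Of the factors themselves, Mlxip fell by 0.67 upon Tip60 KD, and Mlx rose by 0.59 upon Tip60 KD and 0.33 upon Hdac6 KD. Mlxipl did not pass the test without the block. With the block it passed as higher upon Hdac6 KD (0.25, limma adjusted p = 0.0720), where the calls became 2 genes higher and 2 lower. In double KD the calls with the block were 1 gene higher and 3 lower.

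The list of chromatin cofactors of Myc and Mad had 16 of 17 genes tested, and 6 rose and 1 fell upon Tip60 KD, 3 rose and 2 fell upon Hdac6 KD, and 4 rose in double KD. With the block these became 7 and 2, 6 and 5, and 8 and 6, and without control KD replicate B or double KD replicate A 2 rose in double KD. Of all genes, 39.8%, 29% and 32.8% passed without the block and 60.9%, 53% and 55.5% with it. The median change of the list was 0.09, 0.01 and 0.14. Actl6a, an actin-like subunit of both Tip60-p400 and BAF, rose by 0.94 upon Tip60 KD (SE 0.12, limma adjusted p = 0.00347), by 0.36 upon Hdac6 KD and by 0.58 in double KD. The call upon Hdac6 KD was marginal (adjusted p = 0.0943) and held under 7 of 19 alternatives. Ncor1, a corepressor that carries Hdac3, rose by 0.84, 0.59 and 0.44. Wdr5, a subunit of the MLL methyltransferases that binds Myc, rose by 0.58 upon Tip60 KD and 0.60 in double KD, with -0.02 upon Hdac6 KD. Ep400, the p400 ATPase of the Tip60 complex, fell by 0.52 upon Hdac6 KD, with -0.13 upon Tip60 KD and -0.33 in double KD. Among the corepressors through which Mxd proteins act, Sin3a fell by 0.41 upon Hdac6 KD and Hdac2 rose by 0.33 upon Tip60 KD. With normexp, the series matrix, no filter or the compared arrays alone, 0 genes of the list fell upon Hdac6 KD. The falls of Ep400 and Sin3a thus lost their calls under these alternatives. Without the block Sin3b, Hdac1 and Hdac3 did not pass the test in these contrasts. With the block Sin3b passed as lower upon Tip60 KD (-0.26), upon Hdac6 KD (-0.34) and in double KD (-0.17). Hdac1 then passed as higher upon Hdac6 KD (0.24) and in double KD (0.23), and Hdac3 as higher upon Hdac6 KD (0.16). Hdac2 passed there as lower upon Hdac6 KD (-0.24) and in double KD (-0.19), and Sin3a also as lower in double KD (-0.30).

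Of 15 genes for the turnover of the Myc protein, 3 rose and 7 fell upon Tip60 KD, 3 rose and 2 fell upon Hdac6 KD, and 3 rose and 5 fell in double KD, with medians of -0.22, 0.00 and -0.08. Fbxw7, the ubiquitin ligase adaptor that marks phosphorylated Myc for degradation, fell by 0.75 upon Tip60 KD (SE 0.18, limma adjusted p = 0.0253) and by 0.69 in double KD, with 0.07 upon Hdac6 KD. Gsk3b, the kinase that makes the mark Fbxw7 reads, fell by 0.79 and 0.33 in the same groups, with -0.02 upon Hdac6 KD. Usp28, the deubiquitinase that opposes Fbxw7, fell by 0.90 upon Tip60 KD, 0.67 upon Hdac6 KD and 0.65 in double KD. Pim1, a kinase that stabilises Myc, rose by 0.56 upon Hdac6 KD and 0.69 in double KD, with 0.06 upon Tip60 KD. With the block 4 genes rose and 4 fell upon Hdac6 KD, and without control KD replicate A 1 rose and 1 fell in double KD. Without the block 39.8%, 29% and 32.8% of all genes passed in the 3 knockdowns, and with it 60.9%, 53% and 55.5%. The values of the turnover genes are transcript levels, and the Myc protein was not measured here.

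Of 24 tested genes that Myc is known to induce, 7 rose and 4 fell upon Tip60 KD, 7 rose and 1 fell upon Hdac6 KD, and 7 rose and 3 fell in double KD, with medians of 0.04, 0.11 and 0.00. Without control KD replicate A 6 rose and 0 fell upon Tip60 KD, 4 and 0 upon Hdac6 KD and 6 and 0 in double KD, and without either of the double KD arrays 0 fell in double KD. Of all genes, 39.8%, 29% and 32.8% passed without the block, and 60.9%, 53% and 55.5% with it. With the block the counts of the list were 7 and 6, 10 and 5, and 8 and 6. These counts hold Ccnd2, which passed the filter on dim probes through the knockdown arrays, and without it 6 rose in each knockdown. Ccnd2, which encodes cyclin D2, was at the floor of -2.71 on both control KD arrays, and reached 0.43 and 0.32 upon Tip60 KD, -1.54 and -1.66 upon Hdac6 KD and -0.44 and -0.50 in double KD. Its groups did not overlap, and because control KD was at the floor its rises of 3.08, 1.11 and 2.24 are lower bounds on the log2 scale and are given without a test. Tfrc, the transferrin receptor, rose by 0.93 upon Tip60 KD and 0.46 in double KD, with -0.18 upon Hdac6 KD. The cell cycle factor E2f2 rose by 0.49, 0.49 and 0.67 in the 3 knockdowns, and E2f1 rose by 0.40 upon Hdac6 KD and 0.57 in double KD, with 0.12 upon Tip60 KD. Odc1, the polyamine enzyme, rose by 0.21, 0.44 and 0.31 and Ncl, nucleolin, by 0.56, 0.44 and 0.35. Eif4e, the cap-binding factor, fell by 0.52, 0.43 and 0.46, and Ldha, lactate dehydrogenase, fell by 0.43 upon Tip60 KD and 0.35 in double KD. Odc1, Ncl, Eif4e and Ldha, like Sin3a, Sin3b and Hdac1 to Hdac3 above, fell outside the rule for naming genes and were chosen after their values were seen.

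Of 8 tested genes that Myc is known to lower, 0 rose by limma without the block (0 at an unadjusted p under 0.05 either). In the same fit 4 fell upon Tip60 KD, 5 upon Hdac6 KD and 4 in double KD, against 20.1%, 14.9% and 16.9% of all genes. The medians were -0.36, -0.41 and -0.43. The shares of all genes that passed with the block, rises and falls together, were 60.9%, 53% and 55.5%. With the block 1 rose and 4 fell upon Tip60 KD, 0 rose and 6 fell upon Hdac6 KD, and 1 rose and 4 fell in double KD. The genes that rose there were Ndrg2 upon Tip60 KD (0.18, adjusted p = 0.0444) and Klf6 in double KD (0.17, adjusted p = 0.0593), both chosen after their values were seen. Without double KD replicate B 2 fell in double KD. Cdkn2b, an inhibitor of the kinases of G1, was at the floor in all 3 knockdowns, so its changes are bounds, and it did not pass. Without it 7 genes were tested, and 4, 5 and 4 fell without the block. Gadd45g, a stress-induced growth arrest gene, was -0.10 and -0.02 in control KD, -1.17 and -1.17 upon Tip60 KD, -1.93 and -2.12 upon Hdac6 KD and -1.24 and -1.38 in double KD on the log2 scale. Hdac6 KD held the lowest values of Gadd45g. Gadd45g fell by 1.11 upon Tip60 KD, 1.96 upon Hdac6 KD and 1.25 in double KD (SE 0.10). The cyclin-dependent kinase inhibitor Cdkn1b (p27) fell by 0.96, 0.51 and 0.63, of which the call upon Hdac6 KD was marginal (adjusted p = 0.0947) and held under 5 of 19 alternatives. Gadd45a fell by 0.52 upon Tip60 KD and 0.62 in double KD, with -0.30 upon Hdac6 KD. Ndrg1, which N-Myc represses, fell by 1.13 upon Hdac6 KD, with 0.03 upon Tip60 KD and -0.23 in double KD. The Tip60 KD and control KD arrays of Ndrg1 overlapped. With the block Tfrc and Gadd45a also fell upon Hdac6 KD.

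**Figure D3:**
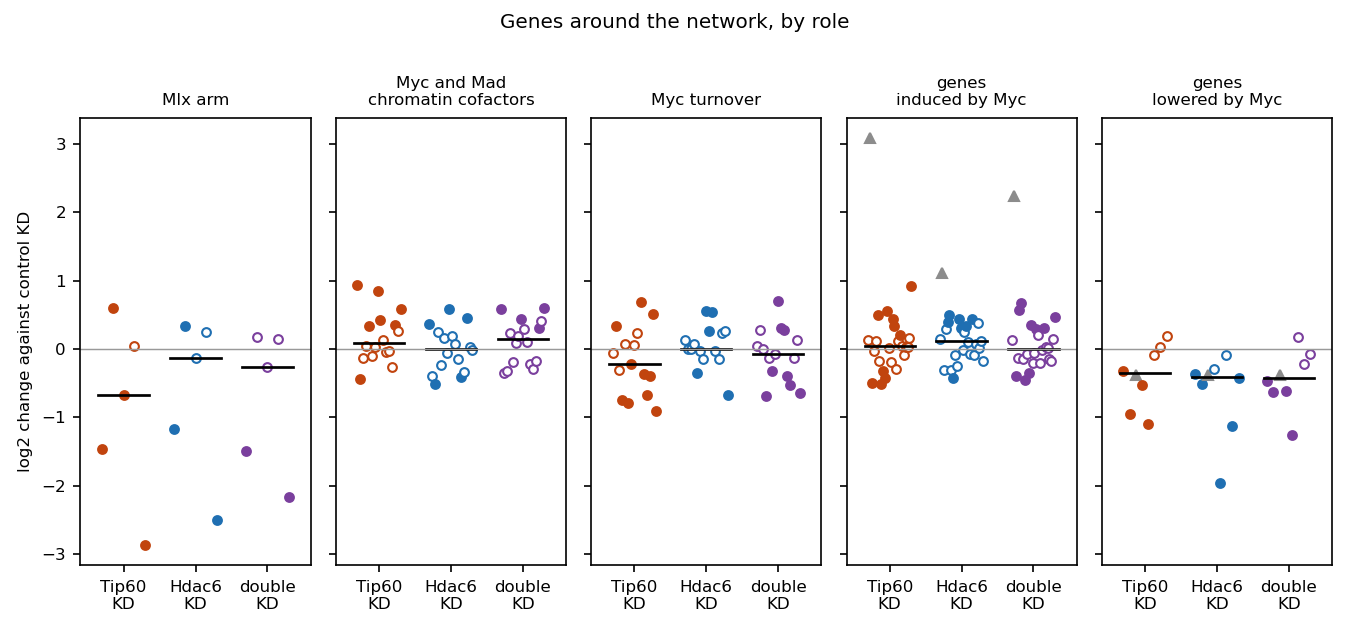
Log2 change against control KD (y axis) of each tested gene of the 5 lists (panels) upon Tip60 KD, Hdac6 KD and in double KD (x axis). Filled symbols passed an adjusted p under 0.1, black bars are medians and grey triangles mark Ccnd2 and Cdkn2b, which lay at the floor in control KD and in the knockdowns respectively, so that their changes are bounds drawn without a test. The genes of the Mlx arm reached -2.87 (Txnip upon Tip60 KD), and the medians of the genes lowered by Myc lay between -0.36 and -0.43.

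The genes whose profile was most like that of Myc were sought by Pearson's r over the 8 arrays among 2928 genes above the floor on every array and with a range of at least 1 on the log2 scale. The closest were Msrb2, a methionine sulfoxide reductase (r = 0.998), Nefh, the heavy neurofilament chain (0.998), Pcolce2, which enhances procollagen processing (0.997), Sfrp1, a secreted Wnt antagonist (0.997), and Tfip11, a splicing factor (0.995). Nefh was -1.76 and -1.87 in control KD, 0.57 and 0.38 upon Tip60 KD, -0.28 and -0.52 upon Hdac6 KD and 0.40 and 0.19 in double KD, so that its groups took the order of those of Myc. The most opposite profiles were those of Mphosph8, a reader of methylated histone H3 (r = -0.997), Stambpl1, a deubiquitinase (-0.996), and Osbp, an oxysterol-binding protein (-0.993). Mphosph8 was 3.25 and 3.22 in control KD, 1.96 and 2.05 upon Tip60 KD, 2.45 and 2.51 upon Hdac6 KD and 1.92 and 2.16 in double KD. None of the 8 genes is a partner of Myc in the network, but of the partners only Mxd1 had a range of at least 1. The search could therefore not have returned the others. The points share slides and groups, and with 4 groups many genes with a like order of groups can reach an r near 1, so these values describe likeness and carry no test.

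**Figure D4:**
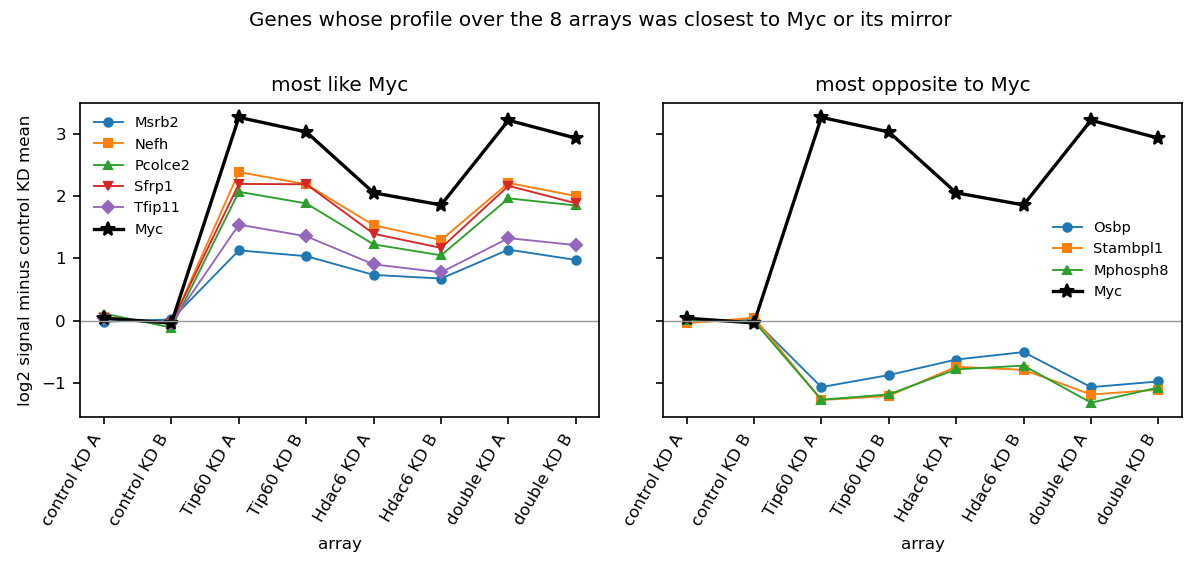
Log2 signal minus the control KD mean (y axis) on each of the 8 arrays (x axis) for Myc (stars) and the 5 genes most like it (left) or the 3 most opposite (right). The like genes were intermediate upon Hdac6 KD and highest upon Tip60 KD and in double KD, and the opposite genes were lowest there.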

How the data were processed

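Cy3-labelled cRNA from 8 ESC samples was hybridised to 1-colour Agilent mouse arrays. The deposited scanner files hold fluorescence intensity per spot, and the processed signal used here had background and a spatial trend removed by the authors' Feature Extraction (version 10.7.1.1 per the labels). The deposited series matrix holds log2 values with the same probe ranks as the median signal, used as an alternative only. Its normalisation is not given in the sources used here.

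The processed signal was divided by each array's 75th percentile, raised to a common floor (the highest, over arrays, of the lowest signal well above background, 0.153 of the percentile) and converted to log2. Control spots and outlier spots were left out, and spots of a probe were averaged. Probes had to be above the floor and well above background on at least 2 arrays, and the probe of highest mean signal stood for a gene, which kept 18109 of 30397 genes. RefSeq accessions named 27234 probes. No spot was saturated. The number of arrays limits the precision.

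limma (3.58.1, R 4.3.3) was fitted to all 8 arrays in 4 groups (lmFit and eBayes, 2-sided, Benjamini-Hochberg over all genes, called at an adjusted p under 0.1, the study's threshold) and was tested on simulated data. Arrays with the same replicate letter shared a slide per the file headers, and their deviations correlated between every pair of groups (r from 0.651 to 0.788 over 6 pairs), so the letters pair the arrays. Members and lists were chosen with earlier results of these data known. Named genes were all members, Kat5 and Hdac6, up to 4 genes per list with the largest change among those called against control KD, and the 5 genes most like and 3 most opposite to Myc. Sequences were read with Python 3.11.15.

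Alternatives were the replicate block (alone and with a trend on probe GC content removed), normexp background correction (offset 50), quantile normalisation, the series matrix, no filter, a lower floor, values at the floor taken as missing, the mean over probes, each probe alone, an adjusted p under 0.05, the compared arrays alone, and leaving out each array. The other Mxd1 probe was added after seeing the data.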

Additional observations from a re-analysis of the deposited data

Results flagged for a closer look

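For 11 genes around the network the limma interaction term (double KD minus both single knockdowns plus control KD) had an adjusted p from 0.00745 to 0.0784. An adjusted p under 0.1 was reached by 22.1% of all genes. Among tested list genes it was reached by 4 of 5 in the Mlx arm, 3 of 16 cofactors and 4 of 15 turnover genes. It was also reached by 6 of 24 genes that Myc is known to induce, Ccnd2 among them, and 3 of 8 that it lowers. The 11 genes had been named for the size of their change against control KD, which enters the term. Their p-values are therefore not independent of that choice and only describe the genes. The term was also 1.05 for Hdac6 itself, whose level was higher in double KD than upon Hdac6 KD. The loss of Hdac6 was thus not equal in these 2 groups. In the Mlx arm the term was 3.20 for Txnip, 1.15 for Arrdc4, 0.54 for Mlxip and -0.75 for Mlx, so that the single changes together exceeded the change in double KD. Among the cofactors it was -0.99 for Ncor1 and -0.72 for Actl6a, and among the turnover genes 0.93 for Usp28 and 0.48 for Gsk3b. It was 1.82 for Gadd45g, 0.87 for Ndrg1 and 0.84 for Cdkn1b. For Ccnd2, with both control KD arrays at the floor, the term of -1.95 comes from bounds and is given without a test.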

How the results depend on the processing

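The higher Myc in double KD than in Hdac6 KD kept its direction under all 20 alternatives (0.98 to 1.26 on the log2 scale, limma adjusted p from 0.00157 to 0.138) and its call under 16 of them. Many of these alternatives could not move the value, because Myc has 1 probe, above the floor on every array. It stayed 1.12 by design with the block, another filter, floor or choice of probe, the compared arrays alone, or an array of another group left out. Those fits are no check of its size or direction. The call was lost with the series matrix (1.11, limma adjusted p = 0.117) and in a fit of the compared arrays alone (1.12, adjusted p = 0.138). Leaving out one array gave 0.98 to 1.26. With the replicate block, which uses the pairing of the arrays, it was 1.12, and 1.12 with a trend on probe GC content removed as well (adjusted p = 0.00157 in both). Untested, Myc against control KD ranged over the alternatives from 3.03 to 3.27 upon Tip60 KD, 1.86 to 2.05 upon Hdac6 KD and 2.93 to 3.22 in double KD.

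The number of partners called changed more. With the replicate block it was 2 upon Tip60 KD, 2 between double KD and Tip60 KD, 3 between double KD and Hdac6 KD and 1 in the interaction, and with the GC trend also removed it was 2, 2, 3 and 2, with 3 upon Hdac6 KD. With normexp it was 0 upon Tip60 KD, 2 upon Hdac6 KD and 0 in double KD. With quantile normalisation, no filter and an adjusted p under 0.05 alike it was 0 upon Hdac6 KD and 1 in double KD. With the series matrix it was 0 in all 3 knockdowns, and with the compared arrays alone 1 in double KD. Leaving out one array gave 0 to 1 upon Hdac6 KD and 0 to 2 in double KD (0 without control KD replicate B or double KD replicate B). Of 994 partner values, 881 kept their direction and call, 26 lost a call, 20 gained one, 67 without a call changed sign and 0 changed sign with a call. Most of the 994 had no call to lose, and some alternatives leave a value unchanged by design. Mxd3 lost its call under 12 of 21 alternatives in double KD and 7 of 21 upon Hdac6 KD. Mxd4 lost its call under 5 of 21 in double KD and 2 of 21 upon Tip60 KD. The causes were not tested. Except for the replicate block, the counts of partners called are not set beside the share of all genes called under the same alternative. They do not show whether a change in a count was particular to the partners. No alternative moved the median change of all genes by over 0.1. Among the list genes, the calls upon Hdac6 KD of Actl6a and Cdkn1b held under 7 and 5 of 19 alternatives. Those of Ep400 and Mlx upon Hdac6 KD and of Gsk3b in double KD each held under 13 of 19. Mxd4, Mxd1 and Mxi1 lay close to the floor, where signal over background limits what can be measured.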

Other observations

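The neighbourhood of Myc was read after the values of Myc had been seen. Within 1000000 bases of the Myc probe on chromosome 15 (mm9) there were 10 other probes, of which those of 2 named genes and 1 unnamed probe stood for genes that could be tested. Pvt1, the noncoding RNA gene that lies next to Myc, was 0.34 and 0.04 in control KD, -0.21 and -0.54 upon Tip60 KD, -0.01 and -0.27 upon Hdac6 KD and -0.08 and -0.32 in double KD on the log2 scale. Pvt1 fell by 0.57 upon Tip60 KD (SE 0.18, limma adjusted p = 0.0606), with -0.33 upon Hdac6 KD (adjusted p = 0.265) and a change of -0.39 in double KD (adjusted p = 0.178). A second Pvt1 probe, in a fit of single probes, gave -0.39 upon Tip60 KD (adjusted p = 0.0184), -0.30 upon Hdac6 KD (0.0609) and -0.22 in double KD (0.119). Macroh2a3, whose probe lies among those of Pvt1, fell by 0.23 upon Tip60 KD (adjusted p = 0.0864) and rose by 0.28 upon Hdac6 KD (adjusted p = 0.0608), with -0.02 in double KD (adjusted p = 0.917). The unnamed probe, A_55_P2077515, was lower in double KD by 0.43 (adjusted p = 0.0961), with -0.04 upon Tip60 KD (adjusted p = 0.891) and -0.20 upon Hdac6 KD (adjusted p = 0.431). The remaining probes in this window did not pass the filter on dim probes. Any link of these changes to the level of Myc was not tested.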
